A study of Mus musculus with 12 samples.

Results

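The cathepsins are proteases that work mainly in lysosomes and late endosomes. Transcripts of 10 of them (Ctsa, Ctsb, Ctsc, Ctsd, Ctse, Ctsh, Ctsk, Ctsl, Ctss and Ctsz) were followed in bulk RNA sequencing of Cx3cr1+ macrophages from mouse lung. The members were chosen by gene symbol, 1 row for each symbol, from 52636 genes in the count table. There were 3 groups of 4 libraries: saline with the genotype label IL4Ra WT (saline WT), bleomycin with IL4Ra WT (bleomycin WT) and bleomycin with IL4Ra KO (bleomycin KO). Bleomycin is a drug that injures the lung and is used to induce fibrosis in mice, and Il4ra encodes the alpha chain through which IL-4 and IL-13 signal. The dose, the time after bleomycin, the age, sex and strain of the mice, and the way Il4ra was deleted are not stated in the labels, and a saline group with the deletion was not analysed here. Nothing in the labels ties the 4 libraries of a group to different mice. The p-values therefore measure the spread among these libraries alone, and that spread may be technical.

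Most cathepsins are made as inactive precursors, carried to the lysosome by mannose 6-phosphate receptors and activated there by the removal of a propeptide. By catalytic type, cathepsins B, C, H, K, L, S and Z are cysteine proteases, cathepsins D and E are aspartic proteases, and cathepsin A is a serine carboxypeptidase. In macrophages they degrade engulfed material and extracellular matrix and trim proteins for display on MHC class II. Cystatins and stefins are protein inhibitors of the cysteine cathepsins.

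All 10 members passed the filter on low counts, as did 16679 genes in all. Total counts were 3534193 to 18051113 in 11 libraries and 60598 in saline WT 2, where 3 counts are worth 32.4 CPM (counts per 1000000 after TMM scaling of library sizes). Bleomycin WT 4 also stood apart: its TMM factor was 0.579, the lowest of the 12, and across genes, which are not independent replicates, the best Spearman correlation it had with another library was 0.730, against 0.939 to 0.986 in the other bleomycin libraries. Il4ra, the targeted gene, did not follow the genotype labels: its mean was 332 CPM in the bleomycin libraries labelled KO, 355 CPM in bleomycin WT and, with saline, 177 CPM (log2 difference between KO and WT -0.09, SE 0.58, adjusted p 0.9998 by edgeR). Below, "bleomycin KO" therefore means libraries that carry this label. Which exons were deleted is not stated, and counts over the whole gene can include exons outside them. Cx3cr1, the marker named for these cells, was detected in every library, from 7.46 CPM in bleomycin WT 4 to 940.4 CPM in saline WT 2, and 10 of 10 macrophage markers were detected in each group. In bulk RNA, fewer cells of a type and less RNA per cell cannot be told apart. Results that rest on saline WT 2 and bleomycin WT 4 are given with them and in a fit of the remaining libraries (the 10-library fit).

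The start sites of several members carry short motifs known from lysosomal and macrophage genes, and the stretches that hold them are shown so that the promoters of these members can be read beside their values. Levels of the MiT/TFE factors follow further on, and no factor of the other motifs was listed. RefSeq promoters of GRCm38.p6 (250 bases before to 50 after the start site) matched 7 of the 10 members and gave 8 promoters, with none for Ctsb, Ctse and Ctsh. Both strands were searched for the E-box CACGTG, which MiT/TFE factors bind as part of the longer lysosomal (CLEAR) element. Capitals mark the E-box in the Ctsa, Ctsd and Ctsl lines and, in the Ctss line, an interferon-type repeat (2 copies of GAAA with any 2 bases between them).
Ctsa, chr2:164833757-164833786, plus strand: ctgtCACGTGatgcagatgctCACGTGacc
Ctsd, chr7:142388048-142388077, minus strand: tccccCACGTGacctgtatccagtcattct
Ctsd, chr7:142387908-142387937, minus strand: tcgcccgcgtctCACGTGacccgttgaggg
Ctsl, chr13:64370739-64370768, minus strand: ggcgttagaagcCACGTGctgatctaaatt
Ctss, chr3:95526536-95526815, plus strand: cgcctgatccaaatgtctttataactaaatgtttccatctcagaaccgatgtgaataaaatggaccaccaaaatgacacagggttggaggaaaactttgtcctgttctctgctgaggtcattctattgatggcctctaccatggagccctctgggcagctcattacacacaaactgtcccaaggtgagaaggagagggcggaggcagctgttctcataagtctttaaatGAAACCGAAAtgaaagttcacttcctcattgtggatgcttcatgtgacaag
The E-box was in 3 of the 8 promoters, against 7.15% of 32841 promoters of the same length. Its 8-base extension TCACGTGA, which overlaps it, was in 2 of the 8 (Ctsa and Ctsd), against 0.974%, and that extension with a further G before it and C after it was in 0 of the 8, against 0.326%. Ctsa had 2 promoters, and only promoter 2, the one shown, held the E-box and its extension. The RefSeq start sites used for Ctsa promoter 2, Ctsd and Ctsl lie inside the gene bounds given with their values below. So do the stretches shown for Ctsa and Ctsl and the Ctsd stretch nearer its start site. The interferon-type repeat was in 1 of the 8, against 3.44%, and the ETS box GAGGAA was in 3 of the 8 (Ctsc, Ctsk and Ctss), against 28.3%. These are matches of letters in a window and not measured binding.

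Ctss was the most abundant cathepsin per length in every group. Levels of different genes were compared as CPM per kilobase of the deposited exonic size. Ctss, which encodes cathepsin S, the protease that removes the invariant chain from MHC class II, stood at 2529.8 ± 585 in saline WT, 6478 ± 926 in bleomycin WT and 7036 ± 1185 CPM per kilobase in bleomycin KO (SD, n = 4 each). Ctsd, which encodes the main aspartic protease of the lysosome, came next at 853 ± 313, 3858 ± 1440 and 4018 ± 245 CPM per kilobase. In all 3 groups the 4 libraries of Ctss lay above the 4 of Ctsd. Below them, Ctsb and Ctsz lay at 556 and 598 CPM per kilobase in saline WT and at 2101 and 2111 in bleomycin WT, with overlap between these neighbours in both groups. The mean of Ctsz in bleomycin WT rests on replicate 4, at 4614 CPM per kilobase, and Ctsb was above Ctsz in the other 3 libraries, at 2225 against 1276 CPM per kilobase on average. In bleomycin KO, Ctsb at 1974 ± 144 lay above Ctsz at 1355 ± 113 CPM per kilobase without overlap. Ctse was last in every group, at 2.14 to 3.53 CPM per kilobase. The place of Ctsc and Ctsl in the order depends on the length used, since their principal transcripts have 2493 and 1971 bases against exonic sizes of 5326 and 6168. With transcript lengths, a choice made after seeing the data, Ctsc moved from the seventh to the fourth place in saline WT.

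The family took a larger share of all RNA counts after bleomycin. The summed level of the 10 members was 12383 ± 3259 CPM in saline WT, 37668 ± 4680 CPM in bleomycin WT and 36439 ± 2751 CPM in bleomycin KO (SD, n = 4 each). As shares of the raw counts, without TMM scaling, they took 1.18 to 1.77%, 2.08 to 4.19% and 3.23 to 3.92%. The 2 measures differ most in the unusual libraries: bleomycin WT 4 had 36144 CPM but 2.08% of its counts, near the 1.77% of saline WT 1. The make-up of the family also differed. Ctsa made up less of it after bleomycin: its share of the per-length family level was 4.73 to 6.77% in the saline libraries, 0.543 to 3.49% in bleomycin WT and 2.08 to 3.11% in bleomycin KO. The share of Ctsh ran from 6.26 to 9.69%, from 3.99 to 5.44% and from 4.35 to 4.94% in the same groups. For both genes the saline libraries lay above every bleomycin library. The share of Ctsd was lower in every saline library than in every bleomycin KO library, with a mean of 14.8 ± 4.25% against 24.5 ± 1.03% (SD, n = 4 each), the latter running from 23.0 to 25.1%, while bleomycin WT ran from 12.3% in replicate 4 to 32.2% in replicate 2.

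**Figure D1:**
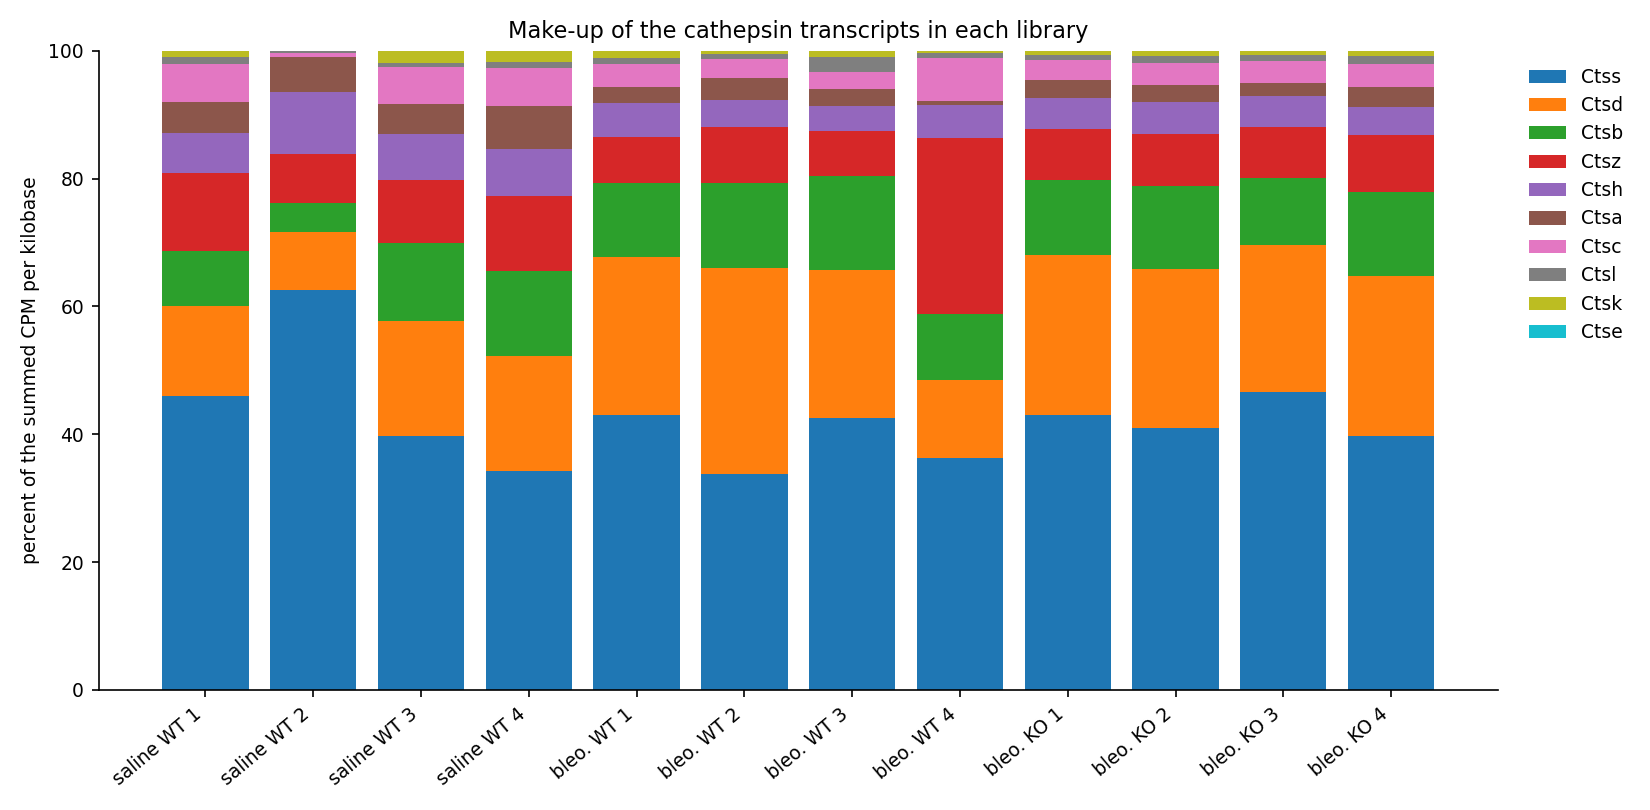
Share of each cathepsin in the summed CPM per kilobase of the 10 members, in percent, for each of the 12 libraries (stacked bars). Ctss and Ctsd make up the largest shares in most libraries, and in bleomycin WT 4 Ctsz takes 27.5%.

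The comparison of bleomycin WT with saline WT asks what differed with bleomycin in libraries of the same genotype label. Ctsd, Ctsb, Ctsl, Ctss and Ctsz had the highest levels relative to saline, with fitted folds of 2.56 to 4.91. In TMM-scaled CPM, the lowest bleomycin WT library exceeded the highest saline library for 7 of the 10 members, as it did for 4.93% of all genes. This depends on the scaling, with TMM factors of 1.54 in saline WT 2 and 0.579 in bleomycin WT 4. As shares of the raw counts, Ctsb, Ctsd and Ctsz lay apart, and Ctsc, Ctsh, Ctsl and Ctss overlapped. In the 12 libraries 0 of the 10 passed (edgeR's quasi-likelihood test, Benjamini-Hochberg adjusted p under 0.05), where 0.024% of 16679 genes passed as higher (4 genes). At an unadjusted p under 0.05, 7 of the 10 were higher, against 8.47% of all genes. In the 10-library fit 3 members rose (Ctsd, Ctsb and Ctss), against 0.287% of 18812 genes that passed as higher.

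**Figure D2:**
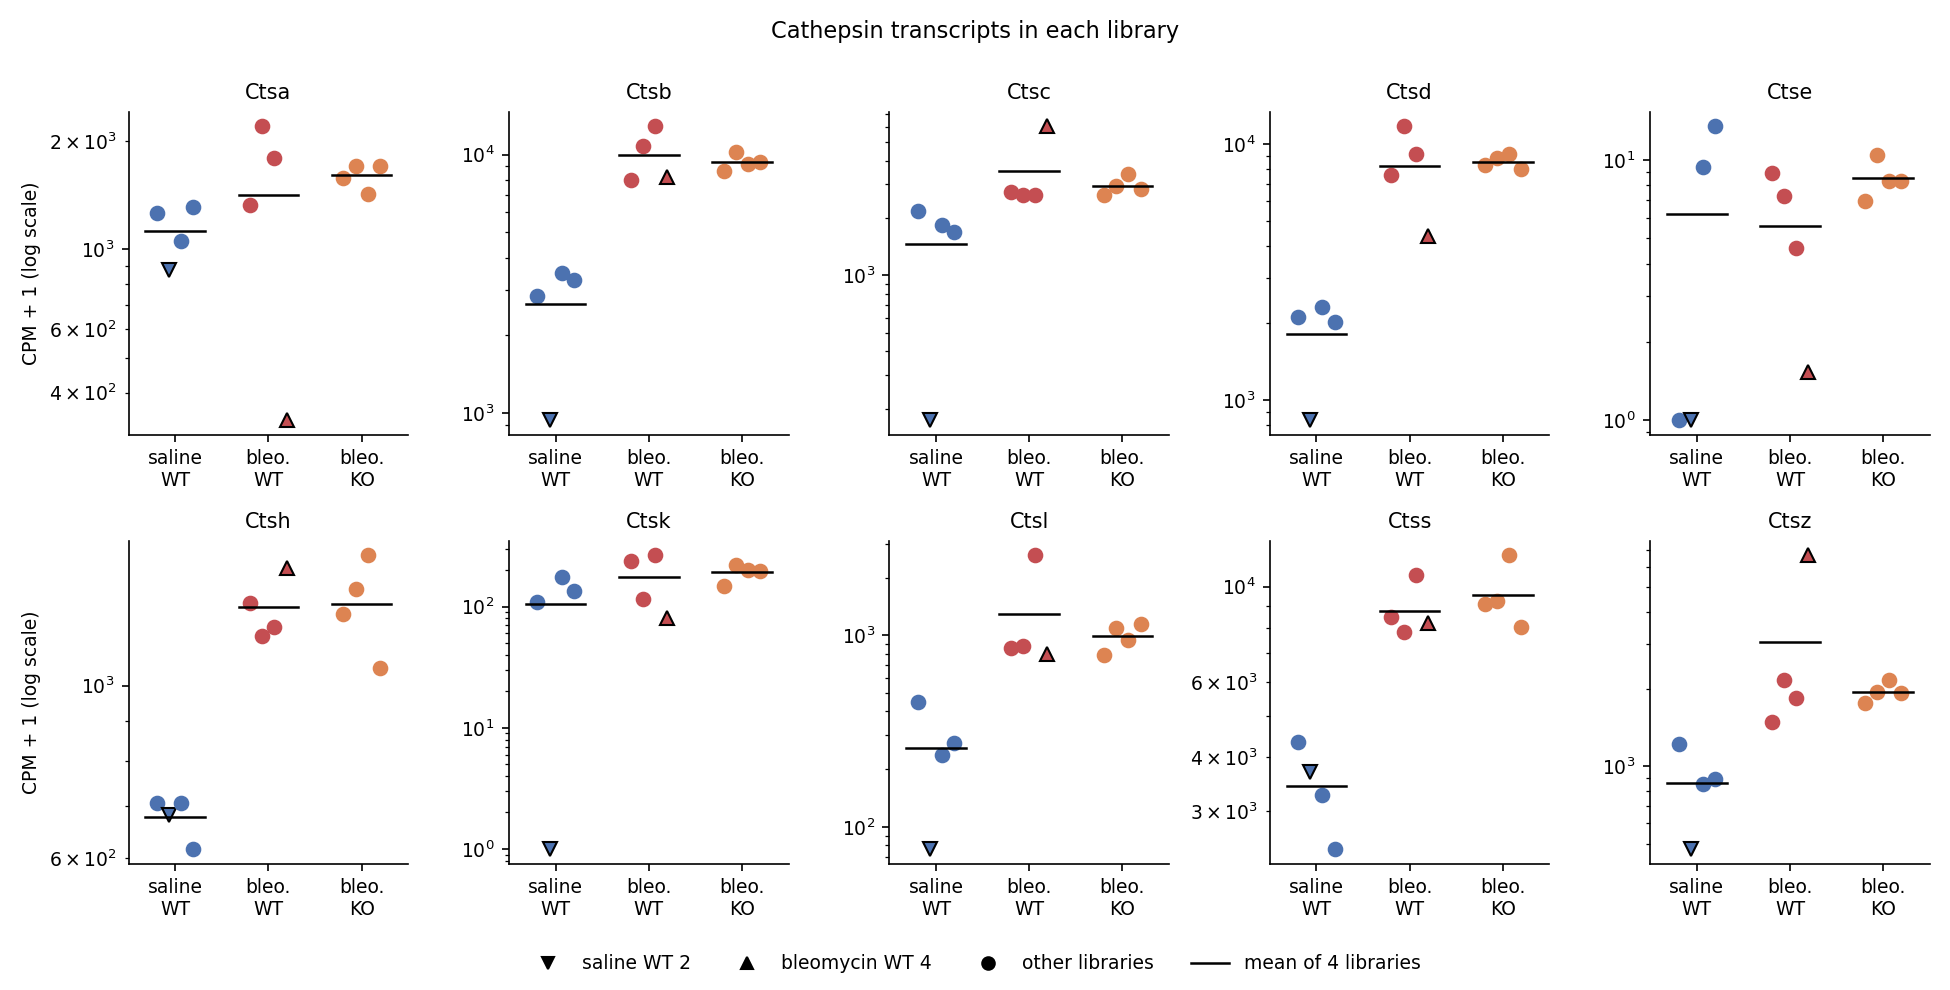
CPM + 1 on a log scale for each cathepsin in each library, by group; bars mark the mean of 4 libraries, and triangles mark saline WT 2 and bleomycin WT 4. For Ctsb, Ctsc, Ctsd, Ctsh, Ctsl, Ctss and Ctsz every bleomycin WT library lies above every saline library.

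Among the aspartic proteases, Ctsd (ENSMUSG00000007891, chromosome 7, 142375911 to 142388038, minus strand, GRCm38, protein-coding) had 2105, 832, 2311 and 2007 CPM in saline WT 1 to 4, and 7599, 11715, 9124 and 4382 CPM in bleomycin WT 1 to 4. The groups did not overlap, and replicate 4 was the lowest of the bleomycin WT libraries. The log2 fold change was 2.17 (SE 0.38, 95% interval 1.36 to 2.99), and edgeR gave an adjusted p of 0.0853. In the 10-library fit it was 2.12 (SE 0.18), and edgeR gave an adjusted p of 0.00159. Ctse (ENSMUSG00000004552, chromosome 1, 131638306 to 131675505), which encodes the endosomal aspartic protease cathepsin E, was near the limit of detection: 0, 0, 8.41 and 12.5 CPM in saline WT and 7.89, 6.24, 3.57 and 0.533 CPM in bleomycin WT. Its counts of 0 allow up to 0.730 CPM in saline WT 1 and 32.4 CPM in saline WT 2 (3 counts, for counting error only), and its 95% interval of -2.77 to 1.88 covers a change in either direction.

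Ctsb, Ctsl, Ctss and Ctsk encode cysteine proteases that act mainly as endopeptidases; cathepsin B also cuts dipeptides from chain ends, and cathepsin K is a strong collagenase best known from osteoclasts. Ctsb (ENSMUSG00000021939, chromosome 14, 63122462 to 63145923) was at 2844, 940.4, 3492 and 3281 CPM in saline WT and at 8003, 10816, 12841 and 8201 CPM in bleomycin WT. All bleomycin WT values, replicate 4 included, were above the highest saline value, with a log2 fold change of 1.91 (SE 0.38) and an adjusted p of 0.102 by edgeR. In the 10-library fit the edgeR adjusted p was 0.0154 at a log2 fold change of 1.70 (SE 0.19).

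Ctss (ENSMUSG00000038642, chromosome 3, 95526786 to 95556403) was at 4339, 3697, 3261 and 2445 CPM in saline WT and at 8486, 7831, 10639.5 and 8235 CPM in bleomycin WT. In TMM-scaled CPM neither saline WT 2 nor bleomycin WT 4 was the extreme library of its group. As shares of the raw counts, saline WT 2 was the highest saline library and bleomycin WT 4 the lowest bleomycin WT library, and the groups overlapped. The log2 fold change was 1.36 (SE 0.30 and adjusted p 0.162 by edgeR) in the 12 libraries and 1.39 (SE 0.25 and adjusted p 0.0464 by edgeR) in the 10-library fit.

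Ctsl (ENSMUSG00000021477, chromosome 13, 64359337 to 64370890) had the largest fitted change of the family in this comparison, with a wide interval. It was at 445, 75.7, 235 and 274 CPM in saline WT, where the saline WT 2 value rests on 7 counts, and at 856, 879, 2609.8 and 801 CPM in bleomycin WT. Bleomycin WT 3 alone stood far above the rest of its group, and without it the log2 fold change was 1.73 (SE 0.50), below the 2.16 of Ctsd in the same libraries. The log2 fold change was 2.30 (SE 0.53, 95% interval 1.17 to 3.42 and adjusted p 0.174 by edgeR), and in the 10-library fit it was 2.16 (SE 0.44 and adjusted p 0.0686 by edgeR). Ctsk (ENSMUSG00000028111, chromosome 3, 95499256 to 95509362) was at 107, 0, 175 and 133 CPM in saline WT and at 237, 114, 264 and 79.6 CPM in bleomycin WT. These groups overlapped, and the log2 fold change of 0.67 (SE 0.66) had an adjusted p of 0.671 by edgeR.

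Ctsc, Ctsh and Ctsz encode cysteine exopeptidases. Cathepsin C, a dipeptidyl peptidase, activates the serine proteases of neutrophils, mast cells and cytotoxic lymphocytes; cathepsin H is an aminopeptidase and cathepsin Z a carboxypeptidase. Ctsh (ENSMUSG00000032359, chromosome 9, 90054267 to 90076089) had the least spread of the family relative to its mean in these 2 groups: 705, 681, 705 and 616 CPM in saline WT against 1276, 1158, 1189 and 1415 CPM in bleomycin WT. The groups did not overlap in TMM-scaled CPM, with a log2 fold change of 0.90 (SE 0.32 and adjusted p 0.250 by edgeR), or 0.81 (SE 0.17 and adjusted p 0.0726 by edgeR) in the 10-library fit.

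Ctsc (ENSMUSG00000030560, chromosome 7, 88278085 to 88310888) was at 2185, 173, 1831 and 1681 CPM in saline WT and at 2749, 2657, 2639 and 6046 CPM in bleomycin WT. Ctsz (ENSMUSG00000016256, chromosome 2, 174427493 to 174439039) was at 1218, 476, 855 and 896 CPM in saline WT and at 1486, 2177, 1854 and 6649 CPM in bleomycin WT. For both genes bleomycin WT 4 was, in TMM-scaled CPM, more than 2 times any other library of its group, and saline WT 2 was the lowest saline library. As shares of the raw counts bleomycin WT 4 was also the highest of its group, by a smaller margin. The fitted changes moved with these libraries: the log2 fold change of Ctsc was 1.26 (SE 0.55) with them and 0.47 (SE 0.17) without, and that of Ctsz was 1.82 (SE 0.47) with them and 0.86 (SE 0.21) without. Neither gene passed in either fit, with adjusted p-values by edgeR of 0.314 and 0.270 for Ctsc and 0.201 and 0.107 for Ctsz.

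Ctsa, the serine carboxypeptidase that also protects the lysosomal enzymes neuraminidase and beta-galactosidase, had the smallest fitted change of the abundant members in the 12 libraries, though not in the 10-library fit, where that of Ctsc was smaller. It was at 1258, 876, 1050.5 and 1306 CPM in saline WT and at 1324, 2191, 1795 and 334 CPM in bleomycin WT. Replicate 4 was below every other library of the study, while the other 3 of its group exceeded each saline library. The log2 fold change was 0.33 (SE 0.45 and adjusted p 0.779 by edgeR), and 0.53 (SE 0.20 and adjusted p 0.284 by edgeR) in the 10-library fit. The contrast between Ctsd and Ctsa does not depend on how libraries are scaled, because it can be read as a ratio within a library. The ratio of Ctsd to Ctsa counts ran from 0.951 to 2.20 in saline WT, from 5.08 to 13.1 in bleomycin WT (5.08 to 5.74 without replicate 4) and from 4.67 to 6.40 in bleomycin KO, and the saline libraries did not overlap with either bleomycin group. Ctsa (ENSMUSG00000017760, chromosome 2, 164832873 to 164841032) overlaps Pltp on the opposite strand, which had 39180 counts over all libraries against 181591 for Ctsa. Ctsb overlaps Fdft1 and Ctsz overlaps Nelfcd in the same way. With a kit that keeps no strand, reads within such overlaps cannot be assigned with certainty.

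Other tools called more members in the same 12 libraries. DESeq2 called 4 as higher (Ctsb, Ctsd, Ctsl and Ctss), against 1.09% of all genes, and limma-voom with quality weights called these 4 and Ctsh, against 0.899%. With no filter on low counts edgeR called 4 (Ctsb, Ctsd, Ctsl and Ctsz), against 0.878%. Leaving out saline WT 2 alone let Ctsb pass and leaving out bleomycin WT 4 alone let Ctsd pass, against 0.0108% and 0.0545% of genes that passed as higher. Over the 10 members the median log2 fold change was 1.31, beside 0.0837 over all genes tested, and 9 of the 10 were above 0, as were 52.9% of all genes. Scaling library sizes by the upper quartile moved the median of all genes to -0.31 and moved some members further than that median. Ctsa came to -0.45, Ctsh to -0.043 and Ctss to 0.36 (SE 0.46 and adjusted p 0.750 by edgeR), while Ctsd was at 1.59, Ctsb at 1.404 and Ctsl at 1.88.

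**Figure D3:**
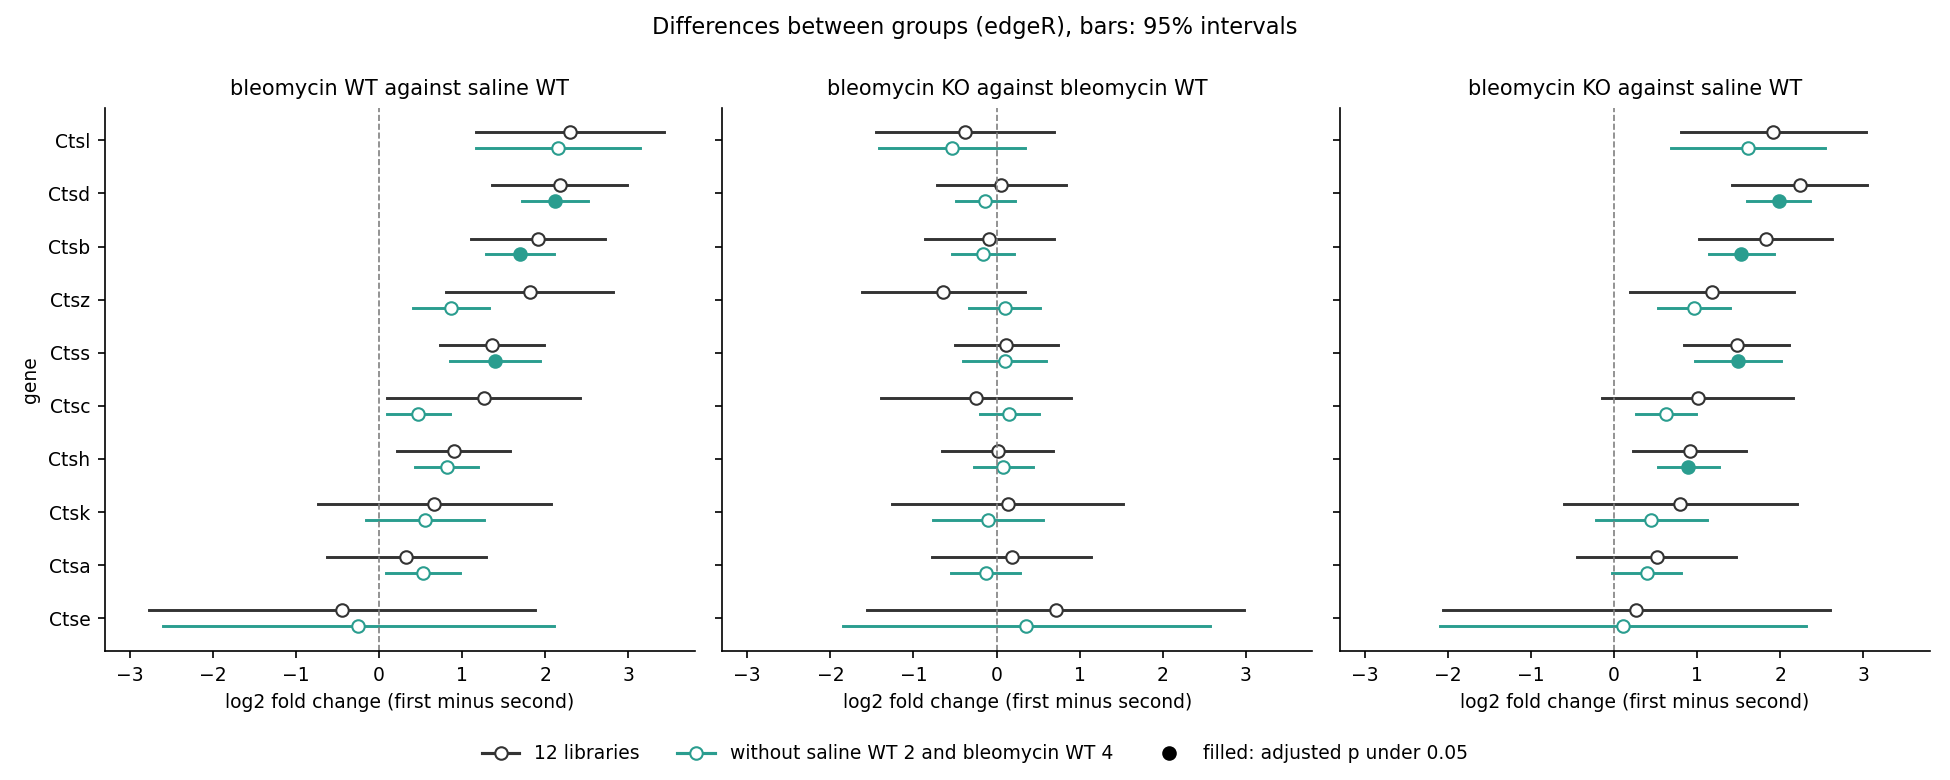
Log2 fold change of each cathepsin in the 3 comparisons, with 95% intervals, in the 12 libraries (black) and in the fit without saline WT 2 and bleomycin WT 4 (green); filled points passed an adjusted p of 0.05. The intervals of the comparison of bleomycin KO with bleomycin WT all include 0.

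The comparison of bleomycin KO with bleomycin WT asks what differed with the genotype label after bleomycin. No cathepsin differed detectably: 0 of the 10 passed, all adjusted p-values by edgeR were 0.9998, and for 0 of the 10 did the libraries of the groups lie apart, against 0.905% of genes that lay apart as higher and 0.594% as lower. None of the 16679 genes passed either (edgeR, DESeq2 and limma-voom), and 647 (3.88%) had an unadjusted p under 0.05, none of them a member. The intervals show what these libraries could exclude for each gene. For Ctss, at 9092, 9244, 11833 and 8051 CPM in bleomycin KO, the log2 difference was 0.12 with a 95% interval of -0.50 to 0.74. For Ctsh, at 1234, 1329, 1469 and 1051 CPM, it was 0.013 with an interval of -0.66 to 0.68.

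Ctsd was at 8271, 8826, 9118 and 7969.7 CPM in bleomycin KO, inside the range of the bleomycin WT libraries. Its log2 difference was 0.059 (95% interval -0.72 to 0.84), or -0.14 (-0.49 to 0.22) in the 10-library fit. Ctsb, at 8624, 10272, 9217 and 9346 CPM, had a log2 difference of -0.090 (-0.87 to 0.69). Ctsl was at 785, 1083, 939 and 1149 CPM, with a log2 difference of -0.38 (-1.45 to 0.70). Only bleomycin WT 3, at 2609.8 CPM, lay above this range.

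Leaving out bleomycin WT 4 alone changed the sign of the difference for Ctsa, Ctsc, Ctsd, Ctsk and Ctsz. Ctsz, at 1768, 1948, 2166 and 1930.4 CPM in bleomycin KO, had the lowest log2 difference of the family, -0.64 (-1.62 to 0.34), and 0.099 (-0.33 to 0.52) in the 10-library fit. Ctsc, at 2626, 2956, 3417 and 2838 CPM, had -0.25 (-1.39 to 0.89), or 0.15 (-0.20 to 0.51) in that fit. Ctsa, at 1580.1, 1700.5, 1426 and 1706 CPM, had 0.18 (-0.77 to 1.14), or -0.13 (-0.54 to 0.28) in that fit. Ctsk was at 147, 219, 200.4 and 196 CPM and Ctse at 5.97, 9.49, 7.27 and 7.29 CPM, and both spanned wide intervals, -1.26 to 1.53 for Ctsk and -1.56 to 2.98 for Ctse.

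The comparison of bleomycin KO with saline WT shares its saline libraries with the comparison above, so agreement between the 2 is no separate evidence. Here 0 of the 10 members passed in the 12 libraries (edgeR), against 0.018% of genes that passed as higher, and 6 of the 10 had an unadjusted p under 0.05 and were higher, against 2.96% of all genes. In TMM-scaled CPM the groups lay apart for 8 of the 10, Ctsa being the added one, against 8.17% of all genes. DESeq2 called 3 members (Ctsb, Ctsd and Ctss; 0.528% of genes) and limma-voom with quality weights called 5 (Ctsb, Ctsd, Ctsh, Ctss and Ctsz; 0.522%). In the 10-library fit 4 members rose, against 0.377% of genes that passed as higher: Ctsd, Ctsb, Ctss and Ctsh. Their log2 fold changes were then 1.98 (SE 0.17 and adjusted p 0.00214 by edgeR), 1.53 (SE 0.18 and adjusted p 0.0111 by edgeR), 1.49 (SE 0.24 and adjusted p 0.0293 by edgeR) and 0.90 (SE 0.16 and adjusted p 0.0456 by edgeR). In the 12 libraries the values for the same genes were 2.23, 1.82, 1.48 and 0.91, with adjusted p-values by edgeR of 0.0913, 0.171, 0.171 and 0.393. Leaving out saline WT 2 alone let 3 pass (Ctsb, Ctsd and Ctss, against 0.054% of genes), and leaving out bleomycin WT 4 alone let Ctsd pass, against 0.0763%. With no filter 4 passed, against 0.167%.

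Marker RNA of other cell types also differed in amount between the groups. The summed level of 10 neutrophil markers was 2614, 3686, 29241 and 17948 CPM in saline WT 1 to 4, whereas it was 328 to 1599 CPM in bleomycin WT and 1162 to 1906 CPM in bleomycin KO, and none of the 10 was at 0 in a whole group. Epithelial markers summed to 1475 to 2348 CPM in saline WT, 268 to 874 CPM in bleomycin WT and 175 to 653 CPM in bleomycin KO, again with none at 0 in a whole group. Macrophage markers were at 6843 to 14057, 14121 to 19086 and 14398 to 17911 CPM in the same groups. In TMM-scaled CPM every saline library thus held more neutrophil and epithelial marker RNA, and less macrophage marker RNA, than every bleomycin library. For the macrophage markers the gap was narrow, with 14057 CPM in saline WT 1 against 14121 CPM in bleomycin WT 1. As shares of the raw counts, the macrophage sums of saline and bleomycin libraries overlapped. Saline WT 1 had the lowest neutrophil sum and the highest macrophage sum of its group. It was the highest saline library for Ctsc (2185 CPM), Ctsl (445 CPM), Ctss (4339 CPM) and Ctsz (1218 CPM). For Ctsa, Ctsb, Ctsd, Ctse, Ctsh and Ctsk it was not, and Ctsd was at 2105 CPM, between the 2007 and 2311 CPM of saline WT 4 and saline WT 3. That library also had the highest epithelial sum of its group. The part of cell make-up in the cathepsin differences was not tested.

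No member of any of the 12 cell type marker lists passed in the 12 libraries (edgeR). At an unadjusted p under 0.05, 8 of the 94 list entries tested (Chil3 is in 2 lists) were higher and 31 lower in bleomycin WT than in saline WT, against 8.47% and 6.19% of all genes, among them 5 macrophage markers that were higher and 9 neutrophil markers that were lower. The lists' median log2 fold changes in this comparison were 0.80 for macrophage, -1.18 for alveolar macrophage, -1.73 for monocyte, -3.22 for neutrophil, -0.85 for epithelial and -1.66 for endothelial markers. They were 0.40 for fibroblast and muscle, 0.77 for T and NK cell, -0.30 for B and plasma cell, -1.06 for dendritic cell, -0.90 for mast cell and basophil and -1.90 for erythroid and platelet markers, beside 0.0837 over all genes. In the 10-library fit Fcgr1, the high-affinity IgG receptor of macrophages, rose by 1.44 (SE 0.24, log2 scale and adjusted p 0.0371 by edgeR). In the same fit 2 alveolar macrophage markers (Ear1 and Krt19), 2 monocyte markers (Plac8 and Treml4), the neutrophil marker S100a9 and the fibroblast marker Inmt fell, with log2 fold changes of -4.33 to -3.11. Over all genes 0.287% passed as higher and 0.144% as lower in that fit. Cx3cr1 itself had a log2 fold change of -2.54 (SE 0.79 and adjusted p 0.225 by edgeR) in the 12 libraries, at 57.0 ± 43.3 against 343 ± 401 CPM (SD, n = 4 each). The saline mean rests on saline WT 2, at 940.4 CPM, since the other saline libraries had 196, 136 and 98.05 CPM. In the 10-library fit the log2 fold change of Cx3cr1 was -0.999 (SE 0.36 and adjusted p 0.264 by edgeR).

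**Figure D4:**
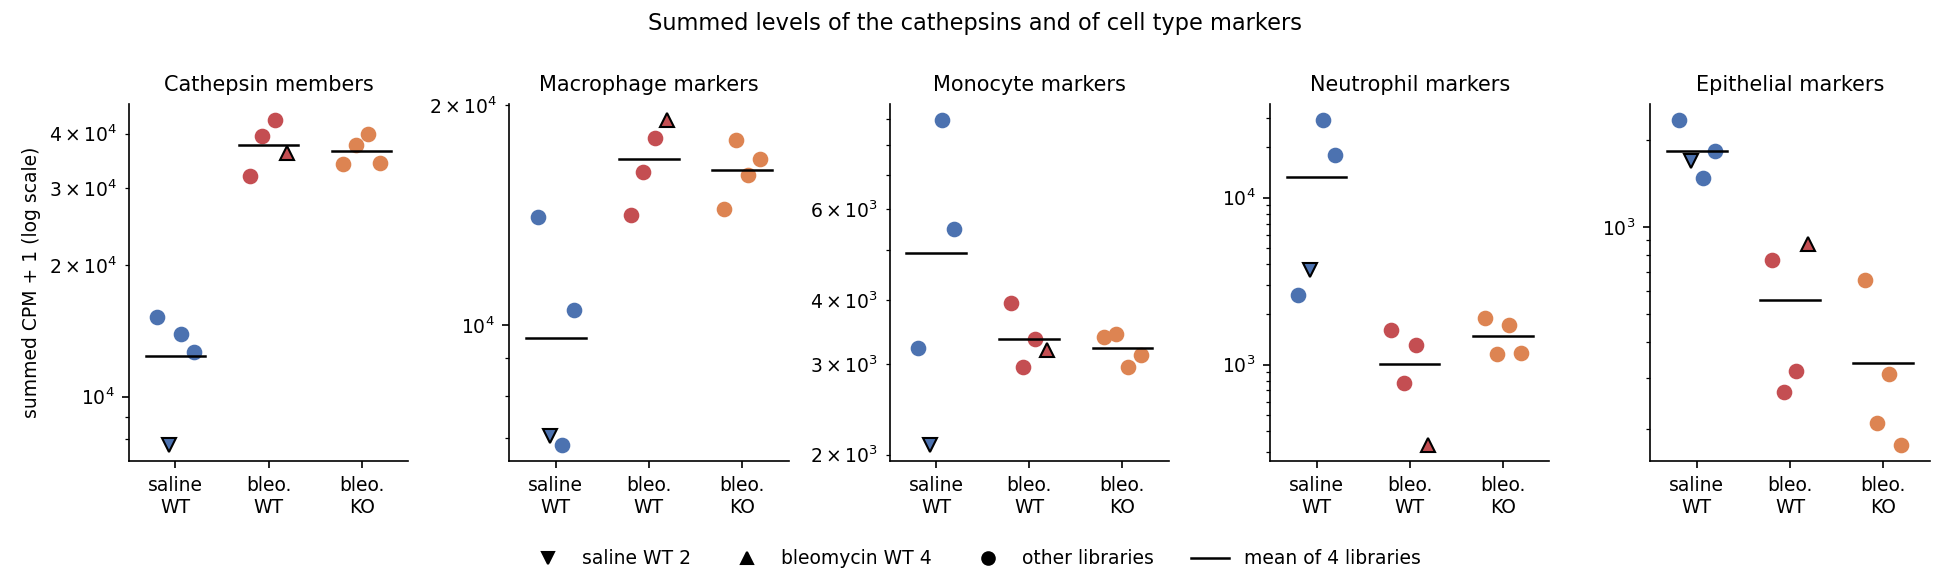
Summed CPM + 1 on a log scale of the 10 cathepsins and of 4 marker lists, for each library by group; bars mark the mean of 4 libraries, and triangles mark saline WT 2 and bleomycin WT 4. The saline libraries lie below the bleomycin libraries for the cathepsins and above them for the neutrophil and epithelial markers.

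The inhibitors went in both directions, with 2 of 5 above 0 in bleomycin WT against saline WT. Of 9 cystatins and stefins, 5 could be tested and 0 passed in any comparison (edgeR, 12 libraries). In bleomycin WT against saline WT their median log2 fold change was -0.39 (-1.81 over 6 genes in the 10-library fit, 0 passed). Only Stfa2l1 had an unadjusted p under 0.05 there (edgeR), as lower, against 6.19% of all genes. In bleomycin KO against saline WT 1 of the 5 was higher and 2 were lower at that threshold, where 2.96% of all genes were higher. The share of all genes that were lower there was not counted, so nothing is read from the 2 lower ones. Cst3, the secreted inhibitor cystatin C and the most abundant of the list, stood at 4071 ± 931 CPM in saline WT, at 3117 ± 1348 CPM in bleomycin WT and at 3077 ± 585 CPM in bleomycin KO (SD, n = 4 each). Its log2 fold change of -0.39 (SE 0.36 and adjusted p 0.645 by edgeR) was within the spread between libraries. Cstb, the cytosolic inhibitor stefin B, was at 335 ± 125, 624 ± 260 and 690.5 ± 111 CPM in the same groups (log2 fold change 0.88, SE 0.43 and adjusted p 0.351 by edgeR). Stfa2l1, a stefin A gene, was at 13.4, 10.8, 39.2 and 24.2 CPM in saline WT and at 4.79, 1.67, 4.30 and 1.42 CPM in bleomycin WT (log2 fold change -2.91, SE 0.75 and adjusted p 0.201 by edgeR). The 10.8 CPM of saline WT 2 is 1 count, under the 32.4 CPM that 3 counts are worth there, so that library cannot be set apart from the bleomycin WT values; the other 3 saline libraries lay above them. Stefin A genes are near-identical copies, so their counts are uncertain.

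Transcripts of other lysosomal peptidases and of cathepsin sorting and partner genes gave no call in the 12 libraries, and single genes differed in direction. Of 6 other lysosomal peptidases, 5 had a log2 fold change above 0 in bleomycin WT against saline WT (52.9% of all genes) and 0 passed (edgeR; median 0.96), with 1 higher at an unadjusted p under 0.05 (Lgmn, against 8.47% of all genes). Napsa, the aspartic peptidase napsin A, was the one below 0, with a log2 fold change of -0.61. The value of 1.19 for Prcp, a prolylcarboxypeptidase, included 652 CPM in bleomycin WT 4, against 83.9 to 102 CPM in the other bleomycin WT libraries and 77.3 to 125.5 CPM in saline WT. Lgmn, the legumain that activates several cathepsins, was at 844, 324, 402 and 492 CPM in saline WT and at 1244, 1883, 2244 and 1272 CPM in bleomycin WT, without overlap in TMM-scaled CPM (log2 fold change 1.68, SE 0.39 and adjusted p 0.174 by edgeR). As shares of the raw counts, Lgmn in bleomycin WT 4 lay below saline WT 1, and the groups overlapped. Tpp1, a tripeptidyl peptidase, was at 208, 32.4, 247 and 259 CPM in saline WT and at 431, 572, 506 and 42.7 CPM in bleomycin WT, so that bleomycin WT 4 lay among the saline libraries. It rose in the 10-library fit (log2 fold change 1.06, SE 0.17 and adjusted p 0.0329 by edgeR). Scpep1, a serine carboxypeptidase related to Ctsa, had a log2 fold change of 0.14 (SE 0.49).

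Of 10 sorting and partner genes, 9 were above 0 in the same comparison (52.9% of all genes) and 0 passed (edgeR, 12 libraries; median 1.18), with 5 higher at an unadjusted p under 0.05 (8.47% of all genes). Neu1, the neuraminidase that cathepsin A protects, was below 0 at -0.24, and Gnptg was at 0.090. Psap, which encodes the precursor of the saposins and binds procathepsin D, was at 2883, 865, 3602 and 3631 CPM in saline WT and at 5532, 17430, 6276 and 965 CPM in bleomycin WT; bleomycin WT 4 again lay among the saline libraries. Grn, which encodes progranulin, a partner of cathepsin D, was at 561 ± 173 and 1752 ± 1225 CPM (log2 fold change 1.64, SE 0.47 and adjusted p 0.219 by edgeR). M6pr, the cation-dependent mannose 6-phosphate receptor, was at 215 ± 54.8 and 400 ± 173 CPM (log2 fold change 0.90, SE 0.41 and adjusted p 0.329 by edgeR).

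The MiT/TFE factors, transcription factors of lysosomal genes, gave 0 of 4 past the threshold in any comparison (edgeR, 12 libraries). In bleomycin WT against saline WT only Tfec had an unadjusted p under 0.05 (edgeR), as higher, against 8.47% of all genes. At that threshold 1 of the 4 was higher in bleomycin KO against saline WT (2.96% of all genes). In bleomycin KO against bleomycin WT 1 of the 4 was lower, where 3.88% of all genes differed in either direction. Tfec was at 18.5, 0, 48.5 and 13.6 CPM in saline WT and at 66.2, 49.2, 67.2 and 218 CPM in bleomycin WT (log2 fold change 2.11, SE 0.70 and adjusted p 0.232 by edgeR). In TMM-scaled CPM these groups were barely apart, at 48.5 against 49.2 CPM, and as shares of the raw counts they overlapped. The count of 0 in saline WT 2 allows up to 32.4 CPM. Tfeb, which is controlled largely at the protein level, had a log2 fold change of -0.22 (SE 0.68) and Tfe3 one of -0.19 (SE 0.78). Mitf reached 573 CPM in bleomycin WT 4 against 24.9 to 46.7 CPM in the other bleomycin WT libraries and 18.9 to 44.4 CPM in bleomycin KO. Its log2 difference of -2.36 (SE 1.03 and adjusted p 0.9998 by edgeR) between bleomycin KO and bleomycin WT thus included 1 library far above the rest.

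**Figure D5:**
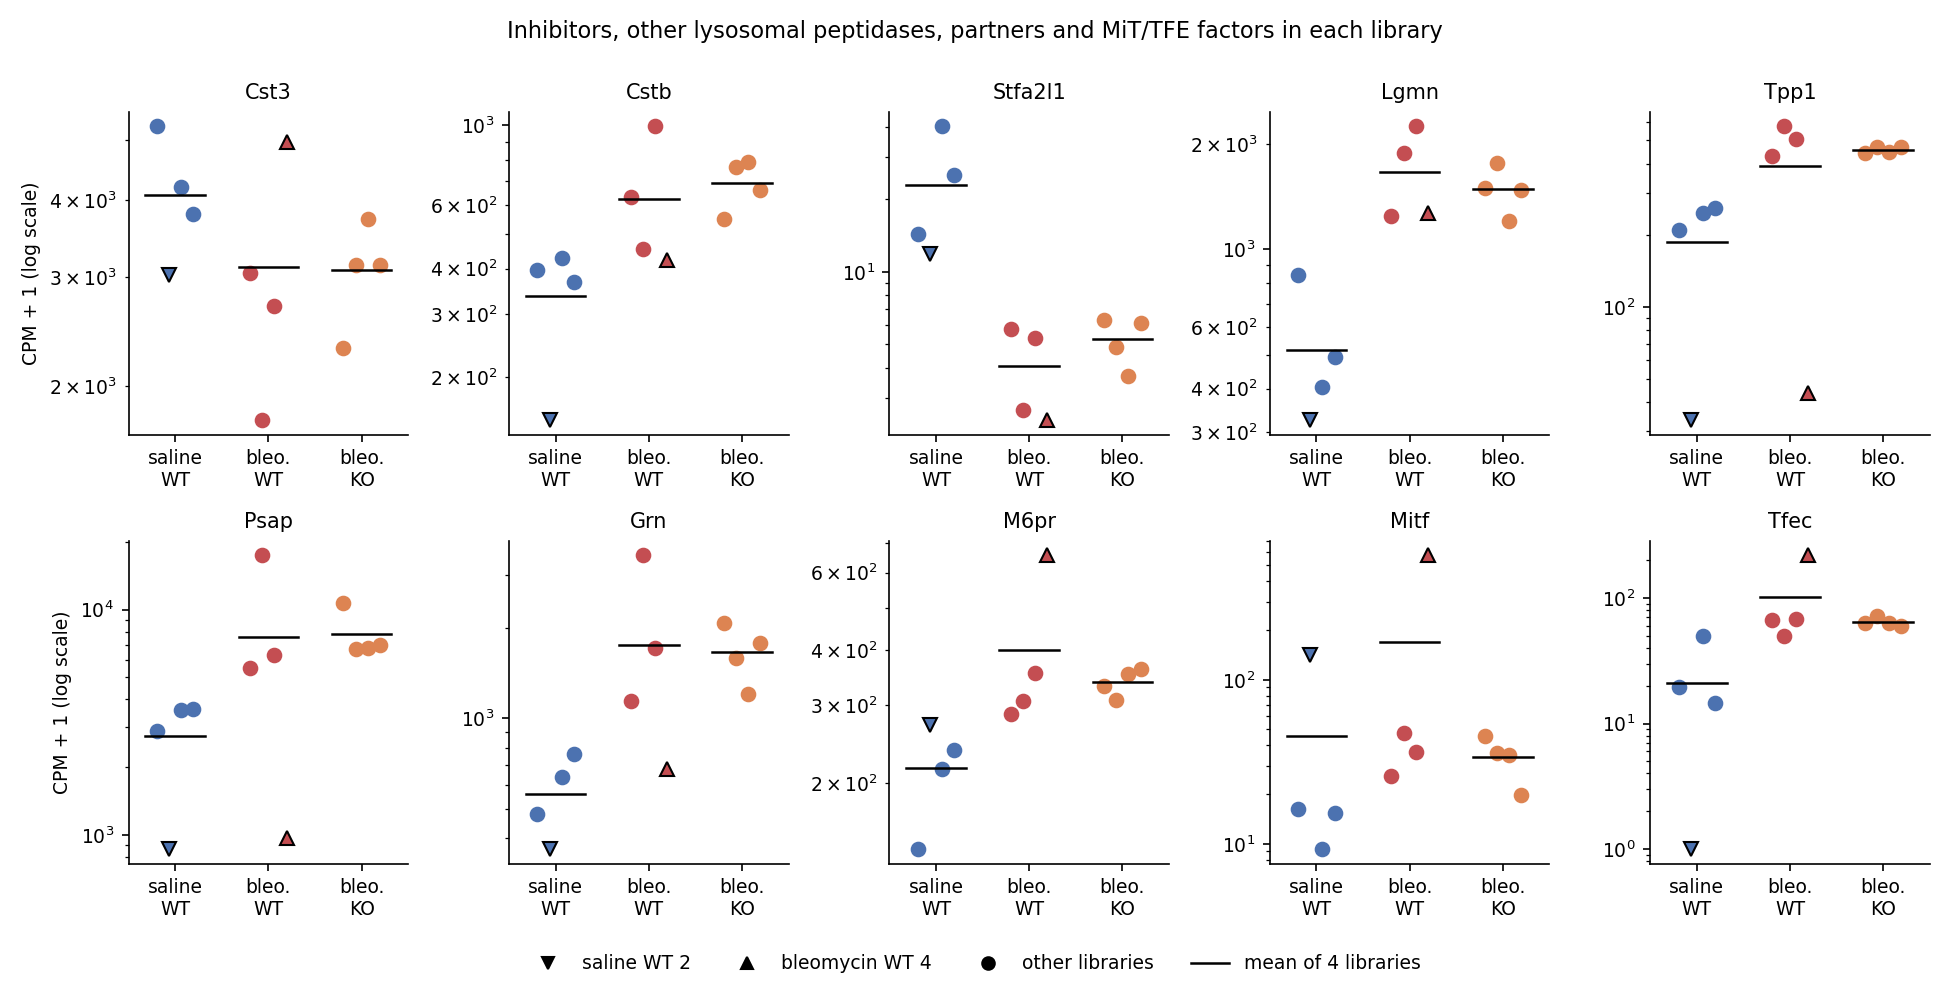
CPM + 1 on a log scale of cathepsin inhibitors (Cst3, Cstb, Stfa2l1), other lysosomal peptidases (Lgmn, Tpp1), partners (Psap, Grn, M6pr) and MiT/TFE factors (Mitf, Tfec) in each library; bars mark the mean of 4 libraries, and triangles mark saline WT 2 and bleomycin WT 4. Bleomycin WT 4 lies among the saline libraries for Tpp1, Psap and Grn and above all other libraries for M6pr, Mitf and Tfec.

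Of 13 further cathepsin genes, 3 passed the filter on low counts and 0 of these passed in any comparison, also at an unadjusted p under 0.05 (edgeR). Ctso, at 77.1 CPM in saline WT (0 to 137.5 CPM) and 68.5 CPM in bleomycin WT (0.533 to 113 CPM), and Ctsf, at 29.4 ± 22.1 and 22.8 ± 12.9 CPM, encode widely expressed lysosomal cysteine proteases. Ctsw, a cathepsin of cytotoxic lymphocytes, was at 17.1 ± 18.5 and 34.3 ± 31.5 CPM (SD, n = 4 each). Ctsg, a neutrophil serine protease that cathepsin C activates, was at 0 to 2.68 CPM in all libraries. Of 10 proteases activated by cathepsin C, 5 could be tested and 0 passed, also at an unadjusted p under 0.05 (edgeR). The highest of these by mean, Gzma, was at 361 CPM in bleomycin WT 4, the library with the highest Ctsc, against 2.66 to 52.8 CPM in the other bleomycin WT libraries.

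The genes most like each member were sought by Pearson correlation of log2 CPM over the 11 libraries with more than 1000000 counts, among 3968 genes outside the family with a mean of at least 50 CPM. The points share the difference between saline and bleomycin libraries and the unusual values of bleomycin WT 4, so the correlations are descriptions and carry no p. Ctsd lay closest to Gpnmb (r = 0.968), a glycoprotein of lysosome-rich macrophages, and Spp1 (0.952), which encodes osteopontin. Ctsb lay closest to the scavenger receptor gene Msr1 (0.972) and to Lrpap1 (0.971), a chaperone of lipoprotein receptors. Ctss was nearest to Trem2 (0.966), a lipid-sensing receptor, and to the inhibitory IgG receptor gene Fcgr2b (0.962). Ctsl was nearest to Slc25a4 (0.949) and Trem2 (0.947), and Ctsh to Apobec1 (0.970) and Ccrl2 (0.969).

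For the remaining members the nearest genes were Lgals9 (0.969) and Erg28 (0.967) for Ctsc, Mvd (0.977) and Capg (0.974) for Ctsz, and Tmem86a and Fdft1 (0.984 each) for Ctsa, where Fdft1 is the gene that overlaps Ctsb. Ctsk lay nearest to S100a10 (0.949) and Psma2 (0.937), and Ctse to Kmt5b (0.970) and Mtmr10 (0.963). Ctse had no counts in saline WT 1, and its Spearman correlations were lower, at 0.827 for Kmt5b and 0.491 for Mtmr10. Within the family, Ctsd and Ctsb had an r of 0.956 in the 11 libraries and 0.979 without bleomycin WT 4. Ctsa and Ctsc had an r of -0.579 with bleomycin WT 4 and 0.560 without it, and Ctsa and Ctsz one of -0.530 and 0.816. The sign of these relations rests on that library.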

How the data were processed

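Raw counts per gene were deposited by the authors for 12 libraries. Per the labels' protocols, cDNA came from the SMART-Seq v4 kit, which does not mark strand, with single-end reads; the tools named, per the submitters' processing notes, are GSNAP, limma and Partek, and the builds are GRCm38 and mm10. Their versions and settings and the treatment of multiply matching reads are not stated. The design text of the series describes another experiment and was not used. The authors' gene table gives symbols, exons and the exonic size (another unit, in bases) that was used for levels per kilobase. Chromosomes and transcript lengths came from GENCODE M21.

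The counts were tested with edgeR 4.0.16 under R 4.3.3 (genes kept by filterByExpr on the groups, TMM, robust quasi-likelihood fit on 12 libraries with group as the only term, Benjamini-Hochberg adjustment over all 16679 genes). A standard error is the log2 fold change over the square root of F. Floors of 3 counts cover counting error only, because amplified copies of a molecule are not independent. Alternatives were RLE and upper-quartile scaling, no filter, DESeq2 1.42.0, limma-voom (limma 3.58.1), only the groups compared, a replicate block, each library left out, and saline WT 2 and bleomycin WT 4 left out together. Each library was treated as 1 sample. Each of the 66 library pairs differed beyond counting noise (lowest chi-square per degree of freedom 21.5). Separately amplified libraries of 1 mouse could differ in that way too, so this cannot show that the libraries come from different mice.

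The members, the 19 lists and the pair of libraries left out together were chosen with earlier results of these data known. Named genes were the 10 members, of each other list the 3 of highest mean CPM and the smallest p in each comparison, and the 2 nearest genes of each member; others named (Ctsg, Tfeb, Fcgr1, Ear1, Krt19, Treml4, Napsa, Neu1, Gnptg) were chosen after their values were seen. A test on simulated data altered genes drawn from the more abundant ones. For bleomycin WT against saline WT (15672 genes), the fit recovered 19% of 100 genes altered 4-fold and 97% of 100 altered 16-fold, and 7 of its 123 calls were false. For bleomycin KO against bleomycin WT (15478 genes) the shares were 19% and 93%, with 4 false calls among 116. For bleomycin KO against saline WT (15540 genes) they were 19% and 96%, with 3 among 118.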

Additional observations from a re-analysis of the deposited data

Results flagged for a closer look

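In 30 groups of 4 libraries (10 members in 3 groups), the highest or lowest library was compared with the rest by its gap to the nearest library over the range of the group, and 3 groups exceeded Dixon's 95% critical value for 4 libraries. Chance flags about 1 in 20 groups. Bleomycin WT 4 stood apart for Ctsc, at 6046 CPM against 2639 to 2749 CPM in the other 3 libraries (gap over range 0.968), and for Ctsz, at 6649 CPM against 1486 to 2177 CPM (0.866). Bleomycin WT 3 stood apart for Ctsl, at 2609.8 CPM against 801 to 879 CPM (0.957). All 3 flags were made on TMM-scaled CPM and depend on that scaling, where the TMM factor of bleomycin WT 4 was 0.579. As shares of the raw counts these libraries were still the highest of their group, by smaller margins relative to the range.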

How the results depend on the processing

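In bleomycin WT against saline WT, 4 genes and 0 members passed. Other settings gave 1 gene with RLE, 1 with upper-quartile scaling, 780 genes and 4 members with no filter, 512 and 4 with DESeq2, 319 and 5 with limma-voom, 0 genes with only the groups compared, and 81 and 3 without saline WT 2 and bleomycin WT 4. In bleomycin KO against saline WT, 3 genes and 0 members passed; the settings in the same order gave 1 and 1 genes, 694 and 4, 370 and 3, 232 and 5, 1 gene, and 121 and 4. In bleomycin KO against bleomycin WT, 243 genes passed with no filter (1 higher, 242 lower, 0 members) and 0 otherwise. Leaving out each library in turn gave 1 to 11 genes and 0 to 1 members in the first of these, and 0 to 18 genes and 0 to 3 members in the second; the highest counts of genes came without bleomycin WT 4, and members passed only without saline WT 2 or without bleomycin WT 4. The cause was not tested. With a replicate block 2, 1 and 0 genes and 0 members passed in these comparisons; the same-numbered libraries of 12 pairs correlated at -0.202 to 0.0665 in their deviations and 0 of 12 libraries was closest to its own number, so the numbers were not taken to pair the libraries.

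Directions changed as follows, in log2 fold changes that did not pass. Upper-quartile scaling gave -0.45 for Ctsa and -0.043 for Ctsh in bleomycin WT against saline WT, -0.20 for Ctsa in bleomycin KO against saline WT and 0.000885 for Ctsb in bleomycin KO against bleomycin WT. Limma-voom gave -0.17 for Ctse in bleomycin KO against saline WT and, in bleomycin KO against bleomycin WT, 0.12 for Ctsc, -0.018 for Ctsd, -0.28 for Ctsk and 0.18 for Ctsz. Without saline WT 2 and bleomycin WT 4 the latter comparison gave -0.13 for Ctsa, 0.15 for Ctsc, -0.14 for Ctsd, -0.098 for Ctsk and 0.099 for Ctsz. Leaving out each library in turn, its values ranged from -0.16 to 0.48 for Ctsa, -0.19 to 0.054 for Ctsb, -0.36 to 0.13 for Ctsc, -0.16 to 0.28 for Ctsd, -0.061 to 0.097 for Ctsh, -0.11 to 0.41 for Ctsk, -0.56 to 0.23 for Ctsl and -0.85 to 0.072 for Ctsz. Ctse ranged from -0.92 to 0.29 in bleomycin WT against saline WT and from -0.21 to 0.996 in bleomycin KO against saline WT.

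Of 200 values for single members in each comparison, 179, 178 and 177 kept their direction and side of the threshold, in the order bleomycin WT against saline WT, bleomycin KO against bleomycin WT and bleomycin KO against saline WT; 18, 0 and 20 newly passed. In simulated data with the spread of these libraries a 4-fold change was mostly missed, and saline WT 2 cannot show levels under 32.4 CPM.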
